A study of Mus musculus with 6 samples.

Results

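The genes that build complex I of the respiratory chain were read in mouse microglia that had been kept together with neutrophils. The set held the protein-coding genes whose symbol starts with Nduf and whose level averaged at least 1 FPKM over the 6 libraries (FPKM, fragments per kilobase of transcript and 1e+06 mapped fragments, a level corrected for transcript length). It came to 45 genes, out of 46 protein-coding Nduf genes and 55335 gene identifiers in the table. Of the 45 genes, 36 code for subunits of complex I, 8 are Nduf assembly factors and 1 is Ndufa4, which carries an Nduf name but is now counted as a subunit of complex IV.

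In the study, primary microglia were grown from the brains of neonatal C57BL/6 mice and shaken off their flasks on day 14 of culture. They were then co-cultured for 24 h with neutrophils that had been isolated magnetically from injured spinal cords at 3 days after spinal cord injury (SCI). The paper names flow-sorted microglia from this co-culture in its inhibitor experiments, while its RNA sequencing methods name no sorting step. The neutrophil donors were adult males, either Cd177 WT or Cd177-/- (KO), the microglia were WT in both arms, and all neutrophils came from injured cords. There were 3 libraries with WT and 3 with KO neutrophils. Microglia kept without neutrophils were not analysed here. The comparison asks how the loss of Cd177 in the neutrophils alone changes the microglia. The labels do not state whether replicates were separate cultures or donors, so the p-values below measure only the spread between these libraries, which may be technical.

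Complex I takes electrons from NADH, passes them to ubiquinone and pumps protons across the inner mitochondrial membrane. Its peripheral arm holds the module that oxidises NADH (N module) and the module that reduces quinone (Q module), and its membrane arm holds the proton pumps. The catalytic core is coded partly in the nucleus (Ndufv1, Ndufs1 and Ndufs8 among others) and partly in mitochondrial DNA (the mt-Nd genes), and accessory subunits surround the core. In macrophages and microglia, the balance between glycolysis and respiration shifts with the inflammatory state of the cell.

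The libraries summed to 314100 to 315600 FPKM with WT and 323600 to 326900 FPKM with KO neutrophils, and their depth was estimated from the steps between low values at 15.6 to 19.3, in units of 1e+06 fragments. Transcripts coded in mitochondrial DNA made up 11.1% to 11.3% of a WT library and 14.3% to 14.6% of a KO library. Cd177 itself stood at 0.477, 0.113 and 0.151 FPKM in the WT arm and at 0.109, 0.0217 and 0.0845 FPKM in the KO arm, and since the microglia were WT it could not check the neutrophil genotype. Of 14 microglia markers, Sall1, Fcrls and C1qa were listed at 0 in all libraries and 5 reached a mean of 1 FPKM (Tyrobp, Trem2, Csf1r and Cx3cr1 among them), while all 12 markers shared by macrophages did. The summed microglia markers ranged from 307 to 311 FPKM in the WT arm and from 380 to 416 FPKM in the KO arm, and the macrophage markers from 3087 to 3137 FPKM and from 3072 to 3136 FPKM. These sums hold genes that moved in opposite directions. Of the 5 microglia markers 4 were called higher, Trem2 among them (mean of 12.0 against 28.0 FPKM), and 1 lower, the fractalkine receptor Cx3cr1 (2.74 against 1.14 FPKM). Of the 12 macrophage markers 4 were called higher, Ctsd among them (817 against 1121 FPKM), and 4 lower, with Cd14 (474 against 136 FPKM) and Adgre1 (101 against 39.3 FPKM) among these. Of 17 neutrophil markers, S100a9, Retnlg, Ly6g, Mpo, Elane and Ltf were listed at 0 in all libraries. The summed neutrophil list was 149 to 157 FPKM in the WT arm and 8.64 to 9.80 FPKM in the KO arm, nearly all of it Lcn2, Hp and Mmp9, without which it was 2.04 to 2.30 and 0.813 to 1.27 FPKM. Of 10 astrocyte and oligodendrocyte markers none reached 1 FPKM, and their sum was 0.284 to 0.400 FPKM over the 6 libraries. In bulk RNA, fewer cells of a type and less RNA per cell cannot be told apart. The part of these differences in the results below was not tested.

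With KO neutrophils, 20 of the 45 Nduf genes rose and 0 fell. The test was limma on log2(FPKM + 1), KO minus WT, with Benjamini-Hochberg adjustment over the 11395 genes of at least 1 FPKM, and a gene was called at an adjusted p under 0.05. The share of members called, 44.4%, was close to that of all genes tested, of which 43.3% were called. By direction, 24.5% of all genes tested were called higher and 18.8% were called lower. Of the members, 41 had a positive fitted change (91.1%), against 53.7% of all genes tested. The 3 KO values lay above the 3 WT values in 25 of the 45 genes and below them in 0, where 31.3% and 24.6% of all genes tested showed these patterns. The median fitted log2 change was 0.16 for the members, with a range from -0.11 to 0.86, and 0.02 for all genes tested. The members were also read at higher levels, with a median of 25.2 FPKM against 7.91 FPKM for all genes tested. When only genes of at least 5 FPKM were fitted, 19 of 41 members were called higher, beside 29.4% of all genes.

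**Figure D1:**
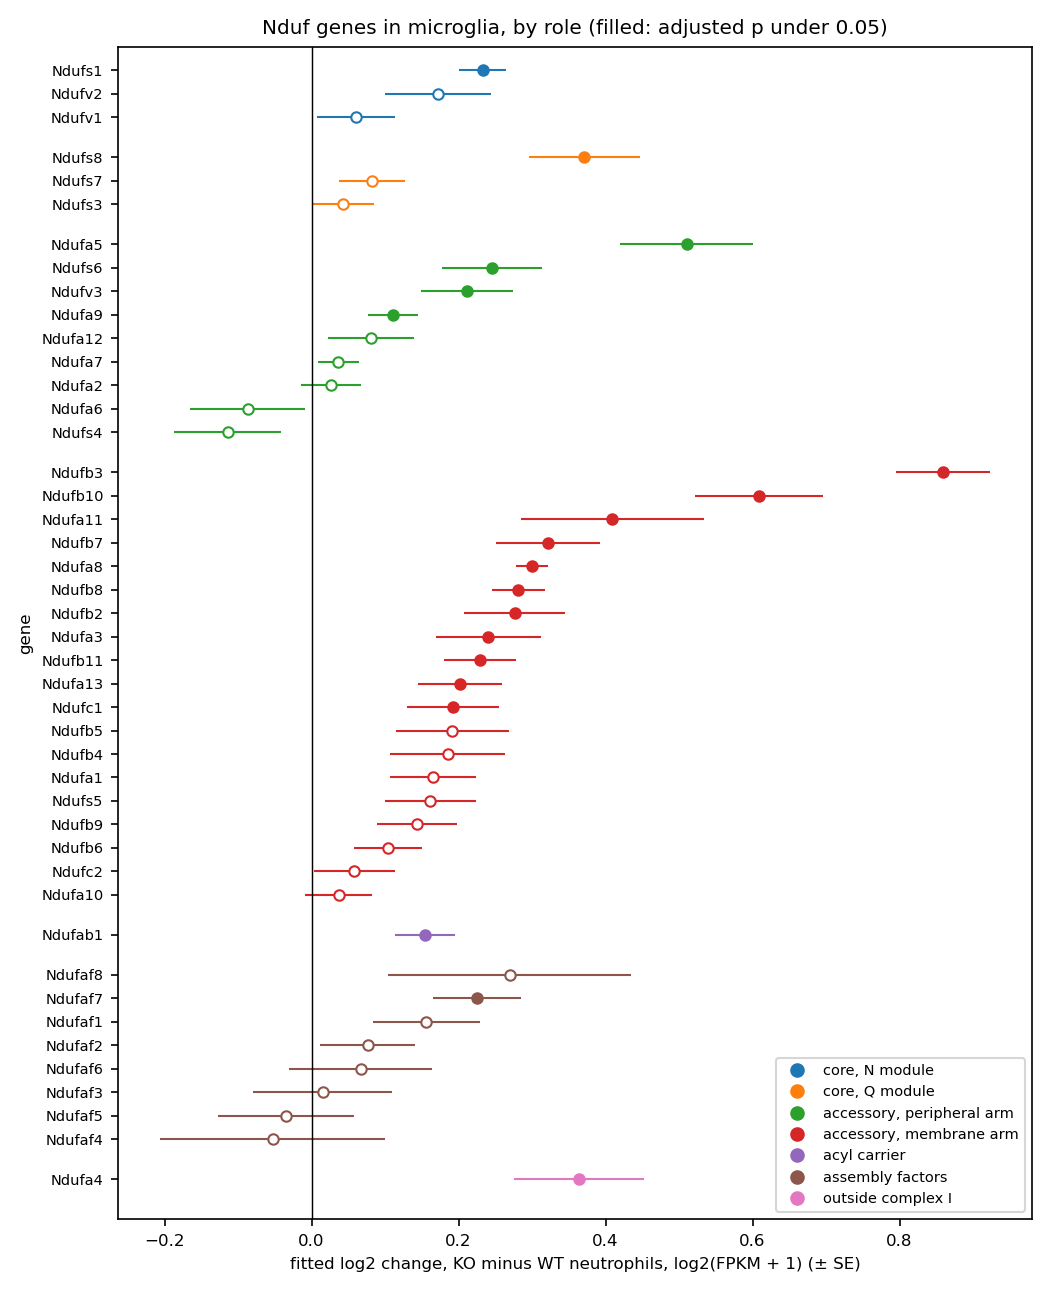
Fitted log2 change of 44 of the 45 Nduf genes (horizontal axis, KO minus WT neutrophils on the log2(FPKM + 1) scale, bars ± SE), grouped by role and ordered within a role. Filled points mark the 20 genes with an adjusted p under 0.05 (limma, 3 libraries per arm), all to the right of 0, with Ndufb3 at 0.86 and Ndufs4 lowest at -0.11.

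The summed level moved the same way in each library. The 45 genes summed to 1156, 1186 and 1151 FPKM in the WT libraries and to 1342, 1327 and 1352 FPKM in the KO libraries. All 3 KO sums were above all 3 WT sums, while the libraries within an arm lay close together. As a share of all FPKM this was 0.366% to 0.376% with WT and 0.41% to 0.414% with KO neutrophils. As a share of the FPKM of the nuclear genes it was 0.413% to 0.423% and 0.479% to 0.484%. In the WT libraries 7, 13 and 10 of the 45 genes stood above their own mean over the 6 libraries, and in the KO libraries 34, 37 and 39 did. The coefficient of variation between libraries of 1 arm had a median of 5.44% for the members and 5.17% for all genes tested.

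The largest rises were those of Ndufb3, Ndufb10, Ndufa5, Ndufa11 and Ndufs8. Ndufb3, an accessory subunit of the membrane arm, (chr1:58586384-58595964 in build GRCm38) was read at 38.3, 40.5 and 41.3 FPKM with WT and at 81.0, 69.8 and 69.9 FPKM with KO neutrophils. Its groups were far apart, and the mean was 83.8% higher (40.0 ± 1.55 against 73.6 ± 6.44 FPKM, mean ± SD, n = 3 each). The fitted log2 change was 0.86 (SE 0.064, limma adjusted p = 0.000125). Ndufb10, also of the membrane arm (chr17:24722060-24724478), had 25.0, 20.3 and 25.0 FPKM in the WT arm and 35.5, 34.5 and 38.3 FPKM in the KO arm. The groups did not overlap, and the fitted log2 change was 0.61 (SE 0.087, limma adjusted p = 0.00209).

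Ndufa5, an accessory subunit of the peripheral arm, was at 15.4, 14.1 and 18.2 FPKM with WT and at 23.4, 21.6 and 23.9 FPKM with KO neutrophils. Every KO library was above every WT library, with a fitted log2 change of 0.51 (SE 0.091, limma adjusted p = 0.00526). Ndufa11, of the membrane arm, was at 8.26, 6.66 and 9.68 FPKM and at 11.8, 11.4 and 10.2 FPKM. Here the lowest KO library lay just above the highest WT library. The fitted log2 change was 0.41 (SE 0.124, limma adjusted p = 0.0382), and the call was lost when any library other than the third WT library was left out, with adjusted p from 0.0518 to 0.107.

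Ndufs8, an iron-sulfur core subunit of the Q module (chr19:3908863-3912774), had the largest fitted change of the 7 core subunits. It was read at 37.3, 34.6 and 34.8 FPKM in the WT arm and at 50.1, 41.1 and 48.0 FPKM in the KO arm. The second KO library was the lowest of its arm but still above the WT arm, and the fitted log2 change was 0.37 (SE 0.076, limma adjusted p = 0.00893). Ndufs1, the large iron-sulfur subunit of the N module, was at 22.7, 23.9 and 22.5 FPKM with WT and at 27.4, 27.0 and 27.4 FPKM with KO neutrophils. The values of each arm were tight and apart from those of the other, with a fitted log2 change of 0.23 (SE 0.032, limma adjusted p = 0.00173).

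The other 5 nuclear core subunits were not called, and the values of 4 of them follow. Ndufv2, an iron-sulfur subunit of the N module, was at 27.7, 32.5 and 27.1 FPKM in the WT arm and at 34.0, 33.1 and 31.4 FPKM in the KO arm. The second WT library lay inside the KO range, and the fitted log2 change was 0.17 (limma adjusted p = 0.101). Without that library it was called (limma adjusted p = 0.00864). Ndufv1, which binds NADH and the flavin, was at 21.4, 23.7 and 22.0 FPKM and at 22.4, 22.9 and 24.8 FPKM. Its arms overlapped, with a fitted log2 change of 0.06 (SE 0.053, limma adjusted p = 0.400).

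Ndufs7, an iron-sulfur subunit of the Q module, was at 17.0, 18.0 and 16.3 FPKM with WT and at 18.7, 18.1 and 17.7 FPKM with KO neutrophils. Ndufs3, also of the Q module, was at 23.4, 23.9 and 21.9 FPKM and at 23.2, 24.7 and 23.5 FPKM. In both genes the arms overlapped, with fitted log2 changes of 0.08 (limma adjusted p = 0.183) and 0.04 (limma adjusted p = 0.455). The direction of Ndufs3 turned on a common-sum scale and after correction for length and GC content, 2 settings in which the median of all genes moved from 0.024 to -0.019 and -0.0096.

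**Figure D2:**
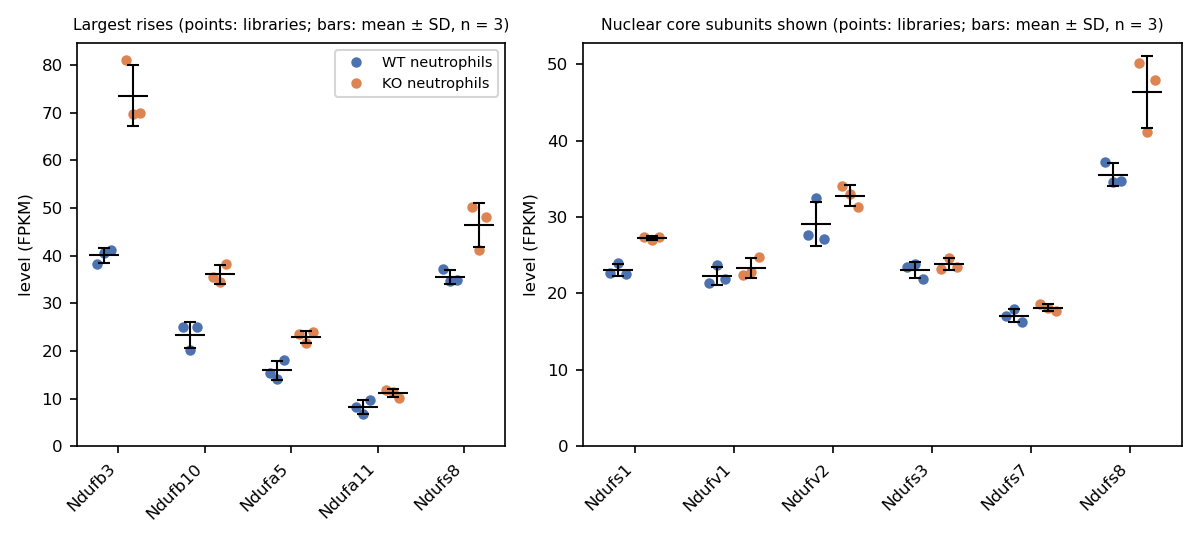
Levels in FPKM of the 5 Nduf genes with the largest rises (left) and of 6 of the 7 nuclear core subunits (right), with 1 point per library for WT (blue) and KO (orange) neutrophils and bars for mean ± SD (n = 3). The arms of Ndufb3 stand clear of each other (38.3 to 41.3 against 69.8 to 81.0 FPKM), while those of Ndufs3 overlap (21.9 to 23.9 against 23.2 to 24.7 FPKM).

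Counted by place in the enzyme, 2 of the 7 core subunits (28.6%) and 16 of the 29 accessory subunits (55.2%) rose, against 24.5% of all genes tested, with median fitted log2 changes of 0.08 and 0.19. Of the 19 accessory subunits of the membrane arm 11 rose, all 19 had positive fitted changes (18 on a common-sum scale), and their median was 0.20. Beside Ndufb3, Ndufb10 and Ndufa11 these were Ndufb7, Ndufa8, Ndufb8, Ndufb2, Ndufa3, Ndufb11, Ndufa13 and Ndufc1, whose fitted log2 changes ran from 0.32 down to 0.19. Ndufa8 had the smallest p of all members, with 71.4, 71.2 and 70.0 FPKM in the WT arm and 85.9, 88.2 and 88.3 FPKM in the KO arm. Its mean was 23.4% higher and its arms were far apart for their spread (fitted log2 change 0.30, SE 0.022, limma adjusted p = 0.000106). Ndufb8, which had the third smallest p, was at 23.4, 24.9 and 25.3 FPKM and 29.9, 29.6 and 30.5 FPKM, again without overlap (0.28, SE 0.036, limma adjusted p = 0.00125). In Ndufc1, in contrast, the highest WT and the lowest KO library both read 25.8 FPKM, and the call (limma adjusted p = 0.048) was lost when any library but the second KO library was left out.

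The other 8 genes of the membrane arm did not pass the test. Ndufb5, Ndufb4, Ndufa1, Ndufs5 and Ndufb9 had KO values above all WT values and fitted log2 changes from 0.14 to 0.19, with limma adjusted p from 0.0619 to 0.102. Ndufb6, Ndufc2 and Ndufa10 had overlapping arms and fitted log2 changes from 0.04 to 0.10, and the sign of Ndufa10 turned on a common-sum scale. Taken by name, 6 of the 10 Ndufb genes rose and 9 of the 10 had arms without overlap, with a median fitted log2 change of 0.25. Over all genes tested 24.5% were called higher and 31.3% had KO values above all WT values.

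Of the 9 accessory subunits of the peripheral arm 4 rose (44.4%, against 24.5% called higher over all genes tested), with a median fitted log2 change of 0.08. Ndufa5 was followed by Ndufs6 (0.25, limma adjusted p = 0.0277), Ndufv3 (0.21, limma adjusted p = 0.0356) and Ndufa9 (0.11, limma adjusted p = 0.0396). In the 6 fits without 1 library, the call was lost in 5 for Ndufs6 and for Ndufv3 and in 4 for Ndufa9, with limma adjusted p up to 0.110. Ndufs6 was read at 39.9, 33.2 and 35.0 FPKM in the WT arm and at 44.2, 41.7 and 42.4 FPKM in the KO arm, so its first WT library reached nearly to the KO arm. Ndufa12, Ndufa7 and Ndufa2 had fitted log2 changes between 0.03 and 0.08, and their arms overlapped. The signs of Ndufa7 and Ndufa2 turned on a common-sum scale. The negative end of the members was also here. Ndufs4, an accessory subunit of the N module needed to finish the enzyme, was at 15.3, 13.8 and 17.0 FPKM with WT and at 14.2, 14.4 and 13.7 FPKM with KO neutrophils. Its second WT library lay within the KO range, and the fitted log2 change was -0.11 (SE 0.073, limma adjusted p = 0.251). Ndufs4 was called lower only without that library (limma adjusted p = 0.0486). Ndufa6 was at 18.4, 19.7 and 23.0 FPKM and at 18.6, 19.6 and 18.8 FPKM, so that 1 WT library stood above the rest (fitted log2 change -0.09, limma adjusted p = 0.409).

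Ndufab1, the mitochondrial acyl carrier protein bound in both arms of the enzyme, was at 7.18, 6.95 and 7.46 FPKM in the WT arm and at 8.09, 8.29 and 7.99 FPKM in the KO arm. The arms did not overlap (fitted log2 change 0.15, limma adjusted p = 0.0243), but the call was lost in 5 of the 6 fits without 1 library, and the gene shares 99.8% and 99.4% of its bases with the processed pseudogenes Gm4459 and Ndufab1-ps over their aligned lengths. These were read at a mean of 6.42 and 3.02 FPKM, so its value is uncertain. Ndufa4, the complex IV subunit, was at 23.1, 26.6 and 21.6 FPKM with WT and at 29.1, 29.6 and 33.8 FPKM with KO neutrophils. All KO values were above the WT values (fitted log2 change 0.36, SE 0.089, limma adjusted p = 0.0178), and without the first WT library the adjusted p was 0.055.

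Assembly factors are needed to build the enzyme but are not part of it. Their levels were low, with means from 3.03 to 14.7 FPKM against a median of 27.4 FPKM for the subunits, but some subunits lay in the same range (Ndufb2 at 3.16 FPKM and Ndufb5 at 5.56 FPKM). Of the 8 Nduf assembly factors 1 rose (12.5%, against 24.5% called higher over all genes tested) and 0 fell, and the median fitted log2 change was 0.07. The riser was Ndufaf7, a methyltransferase. It was at 6.58, 7.35 and 6.47 FPKM with WT and at 8.54, 7.74 and 8.05 FPKM with KO neutrophils, without overlap (0.22, SE 0.060, limma adjusted p = 0.0249). The call was lost without the first or the third library of either arm, with adjusted p from 0.0618 to 0.0747.

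The other 7 factors had overlapping arms. Ndufaf8 was at 6.01, 4.01 and 3.57 FPKM in the WT arm and at 5.11, 5.36 and 6.24 FPKM in the KO arm, and the first WT library alone lay in the KO range (fitted log2 change 0.27, SE 0.165, limma adjusted p = 0.233, and 0.0167 without that library). Ndufaf1, which acts in the early membrane arm, was at 14.1, 12.6 and 14.9 FPKM and at 16.0, 14.4 and 16.3 FPKM (0.16, limma adjusted p = 0.131). Its highest WT value lay above its lowest KO value. Ndufaf2, which binds a late intermediate, was at 5.90, 6.22 and 5.81 FPKM and at 5.83, 6.33 and 6.95 FPKM, a fitted log2 change of 0.08. Ndufaf6 was at 3.50, 3.45 and 4.25 FPKM and at 4.40, 4.00 and 3.47 FPKM, a fitted log2 change of 0.07. The arms of both overlapped, and the highest KO value of Ndufaf2 lay above its WT arm.

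Ndufaf3, a partner of Ndufaf4 in assembly of the Q module, was at 3.97, 3.58 and 3.04 FPKM with WT and at 3.32, 3.94 and 3.45 FPKM with KO neutrophils. Ndufaf5, which modifies an arginine of Ndufs7, was at 9.53, 9.48 and 9.31 FPKM and at 7.80, 9.61 and 10.3 FPKM. Ndufaf4, whose level was the lowest of the members, was at 2.49, 3.34 and 3.47 FPKM and at 2.22, 3.20 and 3.47 FPKM. In Ndufaf5 the KO values lay on either side of the narrow WT range, and in the other 2 genes the arms covered much the same range. The fitted log2 changes were 0.02, -0.04 and -0.05, and they turned sign under some other settings.

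Of the 46 protein-coding Nduf genes, Ndufaf4 was the closest above the limit of 1 FPKM, at a mean of 3.03 FPKM, and Ndufa4l2 was the one below it. Ndufa4l2, a relative of Ndufa4 known as a hypoxia-induced gene, was at 0, 0.156 and 0.172 FPKM in the WT arm and at 0, 0 and 0.0724 FPKM in the KO arm. All of these values were under the highest of the floors that 3 fragments set in the libraries (0.166 to 0.206 FPKM), so a difference was not detectable at this depth (exact two-sided permutation test, p = 0.4, where 0.1 is the smallest that 3 against 3 libraries can give). Ndufb1, a subunit of the membrane arm, is listed under the symbol Ndufb1-ps and typed as a non-coding transcript in the annotation used, so the rule left it out. It was at 28.7, 31.1 and 32.6 FPKM and at 35.3, 31.8 and 34.7 FPKM, with overlapping arms and a fitted log2 change of 0.14 (limma adjusted p = 0.106).

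Of the 20 calls, 9 held in all other settings tried. The number of members called higher was 11 when no gene was left out for a low level, where 9.75% of all genes were called higher. It was 12 on a common-sum (TPM) scale, beside 19.2% of all genes, and 13 after correction for transcript length and GC content, beside 20.96%. In these 3 settings 0 members were called lower. The number with a positive fitted change was 35 on the common-sum scale and 34 after the correction. On the common-sum scale 54.9% of the calls over all genes were lower ones, against 43.4% as reported, and 51.6% after the correction. Without 1 library at a time, 12 to 15 members were called higher, beside 19.9% to 21.2% of all genes, fewest without the third KO library. The genes called in all 17 other settings were Ndufb3, Ndufb10, Ndufa5, Ndufs8, Ndufb7, Ndufa8, Ndufb8, Ndufs1 and Ndufb11. The other 11 lost the call in 1 (Ndufa4) to 5 of the 6 fits without 1 library, and all 20 kept a positive sign throughout.

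**Figure D3:**
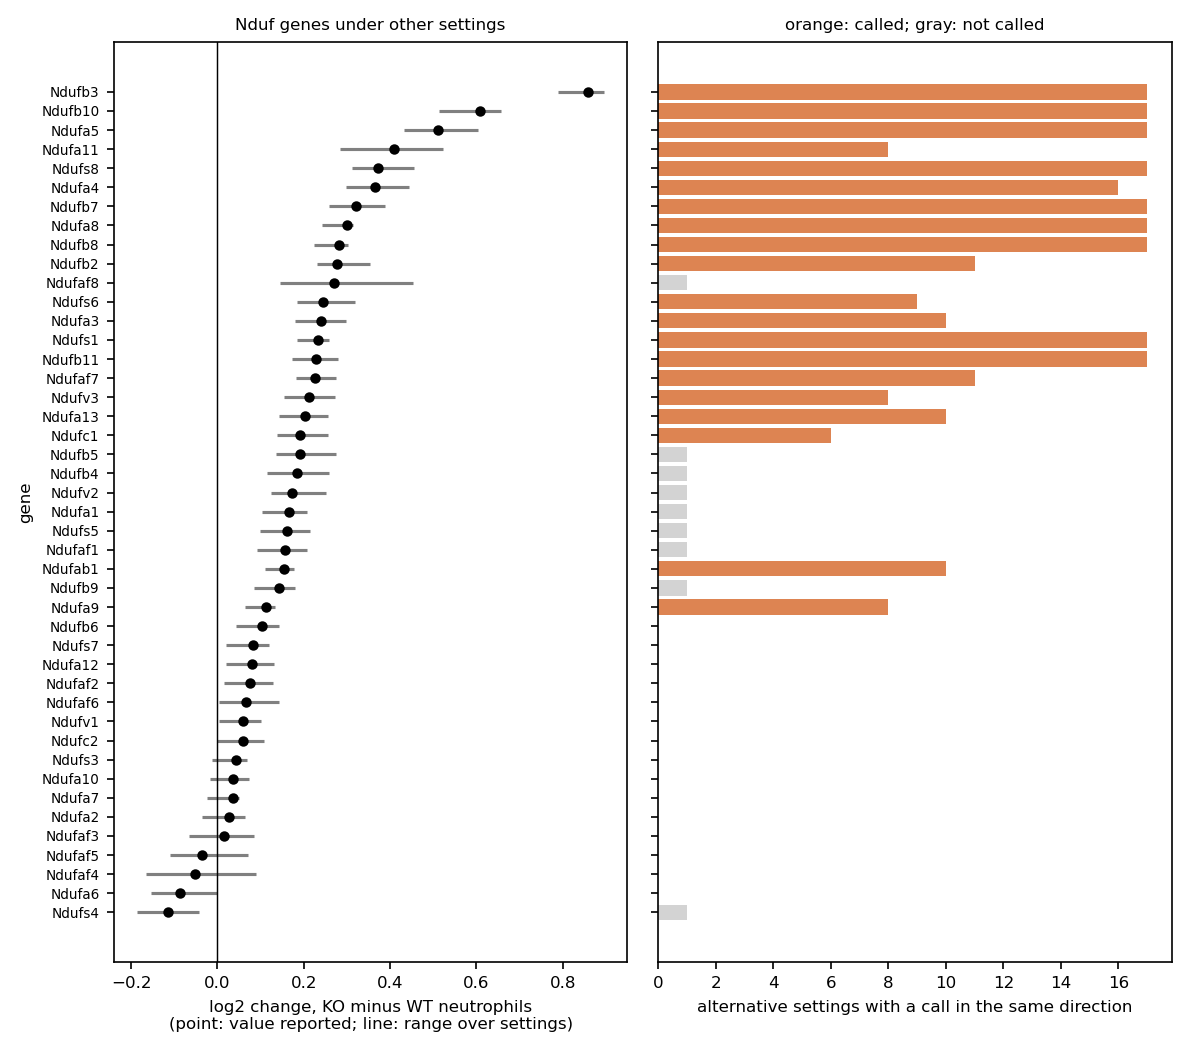
Fitted log2 change of 44 of the 45 Nduf genes (left, point as reported, line for the range over 17 other settings) and number of those settings with a call in the same direction (right, orange for genes called as reported). The bars of 9 genes reach 17, and the lines of genes near 0, such as Ndufs3, cross it.

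The members were short genes. Their median transcript length was 861 bases against 1953 for all genes tested, and 36 of the 45 fell in the shortest quartile. In that quartile the median fitted log2 change of all genes was 0.04, with 23.2% called higher and 12.5% called lower. The 45 genes were spread over 17 chromosomes, with 2 on the X. Of the members 18 share exon bases with another annotated gene, 3 of them on the same strand (Ndufb2, Ndufb8 and Ndufb9) and 16 on the opposite strand. The shared stretches ran from 4 to 1955 bases, and the counting is not stated to use strand, so reads within them cannot be assigned to 1 of the genes from these files. Near-identical copies that were themselves read at 1 FPKM or more were found for Ndufa12, Ndufb4, Ndufs3 and Ndufs5 beside Ndufab1, and the values of these genes are uncertain too. The pseudogene Ndufb4c shares 100% of its bases with Ndufb4 over the aligned length. It was read at a mean of 15.3 FPKM, against 7.87 FPKM for Ndufb4. Unlike Ndufb4, it was called higher (fitted log2 change 0.34, limma adjusted p = 0.0319). The copy of Ndufb3 was read at a mean of 0.319 FPKM.

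The mt-Nd genes code for the membrane core of the same enzyme. All 7 rose, against 24.5% of all genes tested, with fitted log2 changes from 0.56 (mt-Nd5) to 0.78 (mt-Nd4l) and a median of 0.69. The gene mt-Nd1 was at 2016, 2017 and 1999 FPKM with WT and at 3249, 3307 and 3357 FPKM with KO neutrophils (0.72, SE 0.017, limma adjusted p = 9.33e-07). The 7 genes summed to 8148, 8060 and 8115 FPKM in the WT libraries and to 12770, 12650 and 13100 FPKM in the KO libraries. Each library held 6.80 to 7.05 times as much mt-Nd as Nduf FPKM in the WT arm and 9.52 to 9.69 times in the KO arm. The ratio was higher in every KO library than in every WT library.

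**Figure D4:**
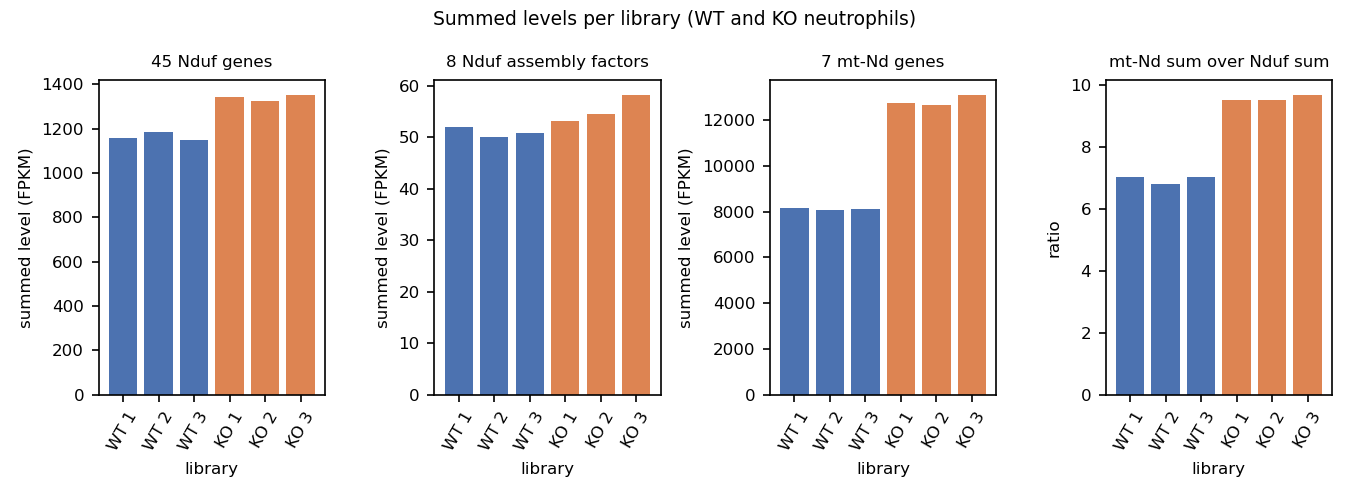
Summed FPKM per library of the 45 Nduf genes, the 8 Nduf assembly factors and the 7 mt-Nd genes, and the ratio of the mt-Nd to the Nduf sum, for WT (blue) and KO (orange) neutrophils. The Nduf sums go from 1151 to 1186 up to 1327 to 1352 FPKM, the assembly factors from 50.0 to 52.1 up to 53.2 to 58.2 FPKM, and the ratio from 6.80 to 7.05 up to 9.52 to 9.69.

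Of 15 assembly factors of complex I with other names, 2 rose (13.3%, against 24.5% of all genes tested) and 0 fell, with a median fitted log2 change of 0.08. Without the third WT library 3 were called higher and 1 lower, and without the third KO library 4 were called higher, where 20.9% and 20.0% of all genes were called higher. The risers were Aifm1, the apoptosis-inducing factor that also serves import of mitochondrial proteins, and Dmac1, a factor of the distal membrane arm. Aifm1 was at 19.8, 20.8 and 19.6 FPKM and at 25.5, 24.7 and 25.6 FPKM (0.32, limma adjusted p = 0.00051). Dmac1 was at 15.9, 14.8 and 12.8 FPKM and at 19.3, 22.6 and 19.8 FPKM (0.48, limma adjusted p = 0.0066). Tmem126a was at 12.0, 9.07 and 9.21 FPKM in the WT arm and at 7.95, 8.07 and 7.86 FPKM in the KO arm, below the WT arm but not called (-0.30, limma adjusted p = 0.0543). It was called lower in 6 of the 17 other settings (limma adjusted p from 0.0247 to 0.0487).

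Of the 36 Nduf subunits 18 rose and 0 fell, with a median fitted log2 change of 0.18, beside 24.5% called higher and 18.8% called lower over all genes tested, and the other respiratory complexes gave the following counts. Of complex II 4 of 8 genes rose, and these were the 4 subunits Sdha (0.33), Sdhb (0.14), Sdhc (0.54) and Sdhd (0.43), while none of the 4 assembly factors was called. Of complex III 5 of 9 subunits rose, with a median of 0.14 and Uqcrh at 0.91. Of complex IV 7 of 10 rose, with a median of 0.28 and Cox6b1 at 0.84. Of complex V 9 of 16 rose and 1 fell (Atp5g2, a form of the c subunit, at -0.08 with a limma adjusted p of 0.0428 that rose above 0.05 without any single library but the first KO library), with a median of 0.18 and Atp5k at 1.10. Each of these values is a fitted log2 change, and the size of the difference between complexes was not tested.

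**Figure D5:**
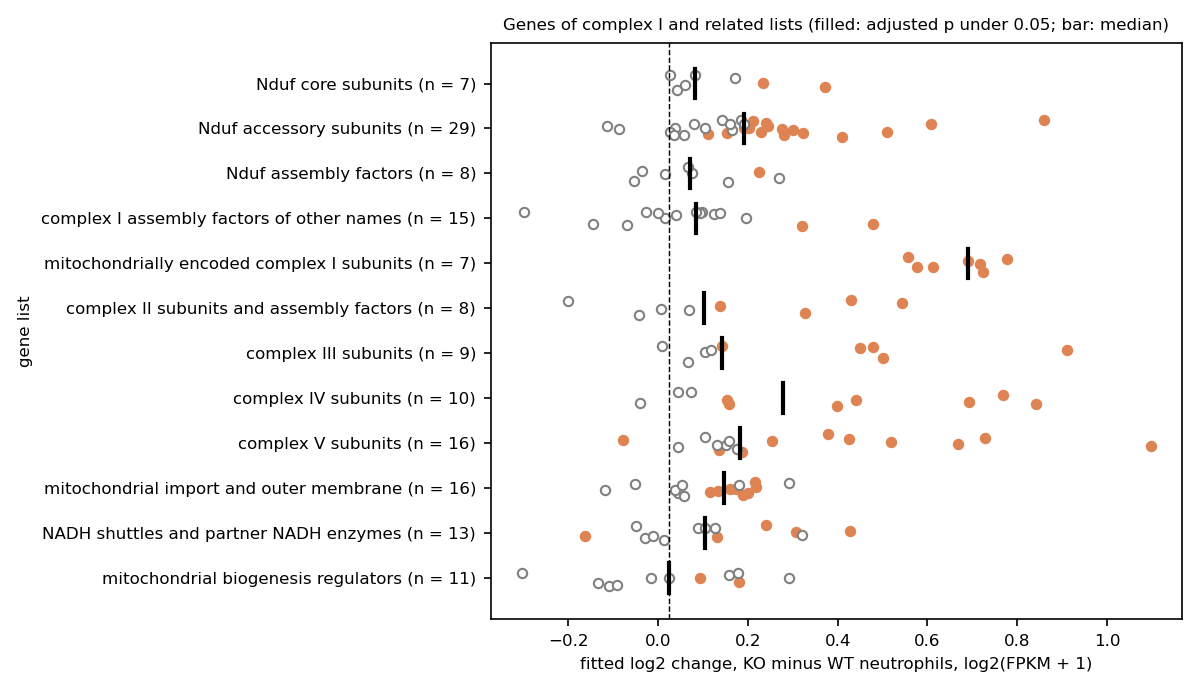
Fitted log2 change of each tested gene of complex I and related lists (horizontal axis, KO minus WT neutrophils, log2(FPKM + 1) scale), with filled points for genes called by limma, black bars for the median of a list and a dashed line for the median of all genes tested (0.02). The 7 mt-Nd genes lie between 0.56 and 0.78, and of the Nduf genes only Ndufb3 (0.86) and Ndufb10 (0.61) lie as high.

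Of the mitochondrial import and outer membrane genes 8 of 16 rose (50.0%, against 24.5% of all genes tested), among them the chaperonins Hspd1 (0.13) and Hspe1 (0.17) and the channel Vdac1 (0.22), with a median of 0.15. Of the NADH shuttles and partner enzymes that feed or bypass complex I, 4 of 13 rose and 1 fell, so that 38.5% were called, against 43.3% of all genes tested. Etfdh, which hands electrons from fat oxidation to ubiquinone, rose from 5.86, 5.83 and 6.14 FPKM to 8.77, 8.43 and 7.83 FPKM (0.43, limma adjusted p = 0.000996), and the aspartate-glutamate carriers Slc25a12 (0.31) and Slc25a13 (0.24) rose too. The gene that fell was Gpd2, the mitochondrial glycerol-3-phosphate dehydrogenase, and its fitted log2 change was -0.16 (limma adjusted p = 0.0178, and 0.0558 or 0.0556 without the third WT or the second KO library).

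Of 11 tested regulators of mitochondrial biogenesis, 2 rose (Tfb2m, a factor for mitochondrial transcription, at 0.18, and Gabpa, an ETS factor, at 0.09) and 0 fell, with a median fitted log2 change of 0.02. This share called higher, 18.2%, was below the 24.5% of all genes tested. Both calls were close to the threshold (limma adjusted p = 0.0438 and 0.0451) and were lost without any 1 of the 6 libraries. Ppargc1a, the coactivator named for this role, was listed at 0 in all libraries but the second KO library (0.00804 FPKM).

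Start regions of some members are shown because 20 of them rose together, and because factors known to bind such regions are among the regulators just listed. Of the 45 members 40 had a RefSeq window of 250 bases before to 50 after an annotated start (mouse build GRCm38.p6). The 120 bases before the start of Ndufb3, the gene with the largest rise, and of Ndufs8, the core subunit with the largest rise, held none of the 5 motifs searched, while the window of Ndufs8 held an ETS match after the start. These were GCGCATGC (NRF1), CCGGAAG (ETS, GABPA), AAGATGGC (YY1), GGGCGG (SP1) and AAGGTCA (ESRRA), on either strand.
Ndufb3, chr1:58586277-58586396, plus strand: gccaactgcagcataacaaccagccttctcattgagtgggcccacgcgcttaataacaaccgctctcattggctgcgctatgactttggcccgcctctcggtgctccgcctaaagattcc
Ndufs8, chr19:3912775-3912894, minus strand: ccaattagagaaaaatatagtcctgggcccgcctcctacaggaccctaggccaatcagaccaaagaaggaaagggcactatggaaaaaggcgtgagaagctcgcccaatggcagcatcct

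The YY1 letters were found in the windows of 8 of the 40 genes (20.0%), against 6.11% of 7802 protein-coding genes tested and 2.75% of all 32851 windows. All 8 matches were on the strand of the gene and began at base 11 to 39, counted from 1 at the annotated start, and the string contains the letters of a start codon. Of the 8 genes 5 rose and 3 did not pass the test, where 20 of the 45 members and 24.5% of all genes tested rose. The YY1 letters are in capitals.
Ndufa3, higher, chr7:3617384-3617413, plus strand: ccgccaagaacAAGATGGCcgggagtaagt
Ndufa9, higher, chr6:126849097-126849126, minus strand: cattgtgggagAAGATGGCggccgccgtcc
Ndufb8, higher, chr19:44555393-44555415, minus strand: cggagaaggtgAAGATGGCtgcc
Ndufc1, higher, chr3:51408915-51408944, minus strand: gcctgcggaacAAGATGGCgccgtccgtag
Ndufs6, higher, chr13:73328433-73328460, minus strand: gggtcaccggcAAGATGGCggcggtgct
Ndufs7, not called, chr10:80249462-80249491, plus strand: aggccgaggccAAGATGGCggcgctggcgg
Ndufs4, not called, chr13:114388045-114388070, minus strand: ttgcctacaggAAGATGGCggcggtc
Ndufaf8, not called, chr11:120098933-120098962, plus strand: aggcagggcccAAGATGGCggcgccctcga

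The NRF1 letters were found in 5 of the 40 genes (12.5%), against 6.97% of the protein-coding genes tested and 2.71% of all windows. Of these Ndufa11 and Ndufa8 rose, and Ndufa6, Ndufaf4 and Ndufaf5 did not pass the test. Among the 45 members 20 rose, and among all genes tested 24.5% did. One match each of Ndufa11 and Ndufa8 is shown, with the letters in capitals as they read on the strand of the gene.
Ndufa11, higher, chr17:56717691-56717720, plus strand: acctgcactgcGCGCATGCgcgcacgcctt
Ndufa8, higher, chr2:36049328-36049357, minus strand: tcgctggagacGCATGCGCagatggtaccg

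The ETS letters were in 6 members (15.0%, against 23.4% of the protein-coding genes tested and 8.86% of all windows), the SP1 letters in 21 (52.5%, against 71.1% and 35.7%) and the ESRRA letters in 3 (7.5%, against 3.74% and 4.72%). Some SP1 and ETS matches overlapped, as in Ndufs3. Yy1 itself stood at 37.4, 38.4 and 38.4 FPKM with WT and at 39.0, 37.4 and 36.6 FPKM with KO neutrophils, and Nrf1 at 1.86, 1.80 and 1.70 FPKM and at 1.57, 1.59 and 1.59 FPKM. Neither was called (limma adjusted p = 0.704 and 0.180), and the use of any of these sites was not measured.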

How the data were processed

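The authors deposited a single table with the FPKM values of 55335 mouse gene identifiers in the 6 libraries. The submitters' processing notes name fastp 0.17.1, HISAT2 2.1.0, DESeq2 1.18.1 and R 3.4.3, but the quantifier, genome build and annotation are not given in the sources used here. The labels and the methods name different library kits and sequencers. FPKM keeps no counts, and low values could not be turned into whole fragments, so no count test was run. Where steps between low values gave a depth, it and the floor of 3 fragments cover counting error only.

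Symbols, positions and lengths came from GENCODE M21 (GRCm38), which named 99.67% of identifiers. The 11395 genes whose mean reached 1 FPKM were fitted with limma 3.58.1 in R 4.3.3 (lmFit, eBayes with trend) on log2(FPKM + 1), a scale that understates the change of low genes. A gene was called at a Benjamini-Hochberg adjusted p under 0.05. The fit was tested on simulated data. Copies were sought with blastn 2.17.0 (at least 95% identity over 80% of the shorter transcript). Promoter windows were taken from RefSeq (GRCm38.p6).

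The members and all lists were chosen with earlier results of these data known. Named genes were set by rule: the 7 core subunits, the 5 largest called rises and falls, all assembly factors, Ndufa4, Ndufa4l2, the mt-Nd genes, genes at the 1 FPKM limit, Cd177, and up to 3 of each other list by p. The single values of 1 core subunit are not reported here. Others were named by their place in a group, and Ndufb1-ps, Yy1, Nrf1, Ppargc1a and single genes of other complexes after their values were seen. As alternatives, the fit was repeated with a pseudocount of 0.1, no filter, a minimum mean of 5 FPKM, a common sum with and without mitochondrial genes, median centring, quantile normalization, no trend, array weights, correction for length and GC content, a replicate block, and leaving out each library.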

Additional observations from a re-analysis of the deposited data

How the results depend on the processing

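The number of Nduf genes called was 20 as reported. It was 11 without a filter on low values, where 25195 genes were adjusted over, 12 on a common-sum (TPM) scale and 13 after correction for length and GC content, and in each setting all calls were higher ones. Of all genes 17.9%, 42.5% and 43.3% were called in these settings. With a common sum that left out the genes of mitochondrial DNA, 20 members were called and their median was 0.17. The median fitted log2 change of the members was 0.12 on the common-sum scale and 0.13 after the correction. The median of all genes moved too, and the members' median lay above it by 0.14 as reported, on the common-sum scale and after the correction. Leaving out 1 library at a time gave 12 to 16 members called, of which 12 to 15 were higher and 0 to 1 lower (Ndufs4, without the second WT library). The count over all genes was then 4081 to 4229 and the members' median 0.15 to 0.18. Replicate numbers are shared by the arms, but same-numbered libraries did not deviate together (correlations of deviations -0.0751, -0.0524 and -0.00518). Library noise can hide a shared deviation, so whether the numbers pair the samples stays unknown. With the replicate block 15 members were called, 13 of the 20 and 2 others, and 4212 genes in all. The fitted log2 changes of some uncalled genes turned sign. On the common-sum scale Ndufs3 was at -0.00487, Ndufaf3 at -0.023, Ndufa10 at -0.0111, Ndufa2 at -0.0224 and Ndufa7 at -0.0115, and after the correction they were at -0.012, -0.042, -0.0183, -0.0359 and -0.0232, with Ndufc2 at -0.00201. Over the fits without 1 library, Ndufaf3 ranged from -0.0653 to 0.0846, Ndufaf4 from -0.166 to 0.0898, Ndufaf5 from -0.111 to 0.0701, Ndufa10 from -0.00118 to 0.0733 and Ndufa2 from -0.000761 to 0.0637, while Yy1 turned to 0.00436 without the third KO library. Depth is known only as an estimate, which limits statements on genes near 1 FPKM.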
